A study of Mus musculus with 6 samples.

Results

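The 7 genes of the AMP-activated protein kinase (AMPK) subunits, the gene of its upstream kinase LKB1 (*Stk11*) and the gene of its substrate acetyl-CoA carboxylase 2, ACC2 (*Acacb*), were followed in the gastrocnemius (GAS) muscle of *Sirt6* KO and WT mice. These 9 genes were chosen by name from the 24532 genes of the deposited count table, and all 9 were among the 13801 genes that passed the filter on low counts and were tested. Both groups were given as C57BL/6 males of about 20 weeks, and both carried *Sirt6* flox/flox. The study's reporting summary names a flox line of mixed strain origin, and the background of the animals was not checked here. Only the animals labelled *Sirt6* KO carried *Myl1-Cre* as well. No group carried *Myl1-Cre* without the floxed gene, so an effect of the Cre allele cannot be told apart from that of the deletion. This Cre is described in the study as active mainly in type II (fast) fibers, so other cells of the muscle may keep the floxed gene. Each group had 3 animals with 1 library each (WT1, WT4 and WT6, here WT 1 to 3, and KO3, KO6 and KO7, here KO 1 to 3), made from poly-A RNA of the whole muscle. The study also probed total and phosphorylated AMPKα protein in GAS muscle of these genotypes, in older mice than those used here. It reported reduced AMPK activity in *Sirt6* KO. Only transcripts are described here, and they do not give the activity of the kinase.

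AMPK is a heterotrimer that senses a low energy state. An α subunit (*Prkaa1* or *Prkaa2*) carries the kinase, a β subunit (*Prkab1* or *Prkab2*) is the scaffold that also binds glycogen, and a γ subunit (*Prkag1*, *Prkag2* or *Prkag3*) binds AMP, ADP and ATP. LKB1, held active by the pseudokinase STRAD and the scaffold MO25, phosphorylates the α subunit. Active AMPK phosphorylates ACC2 at the mitochondrial outer membrane, which lowers malonyl-CoA and so relieves the block on carnitine palmitoyltransferase 1 and on fatty acid oxidation. In skeletal muscle α2 and β2 are the well known predominant isoforms, and γ3 is known as a subunit largely limited to fast glycolytic fibers.

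On the mouse assembly GRCm38.p6, the γ3 gene *Prkag3* (NCBI gene 241113) lies at chr1:74738922-74749471 and the γ2 gene *Prkag2* (108099) at chr5:24862735-25106282, both on the minus strand. Of the other members, *Prkaa1* lies at chr15:5143861-5181899, *Prkaa2* at chr4:105029649-105109898, *Prkab1* at chr5:116013586-116024503, *Prkab2* at chr3:97658211-97673812, *Prkag1* at chr15:98812797-98831508, *Stk11* at chr10:80115767-80130679 and *Acacb* at chr5:114146321-114250761. The promoter windows of *Prkag3* and *Prkag2* are shown because these 2 genes moved furthest, in opposite directions. Each window is the RefSeq sequence of the 250 bases before an annotated start, 5′ to 3′ on the gene's strand, and *Prkag2* had 3 such starts in the table. The windows lie at chr1:74748956-74749205 for *Prkag3* and at chr5:25100643-25100892, chr5:24995754-24996003 and chr5:24908510-24908759 for starts 1, 2 and 3 of *Prkag2*. They lie inside the gene spans given above, and the 5′ ends of those 2 spans have no window here. Capitals mark matches on either strand to 4 sets of letters: the cAMP response element TGACGTCA, its half-site TGACG, the extended nuclear receptor half-site AAGGTCA, and the E-box CANNTG.
Prkag3 start: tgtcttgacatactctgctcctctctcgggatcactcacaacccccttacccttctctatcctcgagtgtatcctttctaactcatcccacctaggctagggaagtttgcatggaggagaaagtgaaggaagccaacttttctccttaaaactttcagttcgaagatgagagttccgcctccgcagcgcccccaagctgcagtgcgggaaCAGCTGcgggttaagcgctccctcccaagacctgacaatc
Prkag2 start 1: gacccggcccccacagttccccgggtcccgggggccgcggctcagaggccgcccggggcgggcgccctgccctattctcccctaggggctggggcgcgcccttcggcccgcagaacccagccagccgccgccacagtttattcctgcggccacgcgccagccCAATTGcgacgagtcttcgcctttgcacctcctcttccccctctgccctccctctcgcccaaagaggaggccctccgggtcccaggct
Prkag2 start 2: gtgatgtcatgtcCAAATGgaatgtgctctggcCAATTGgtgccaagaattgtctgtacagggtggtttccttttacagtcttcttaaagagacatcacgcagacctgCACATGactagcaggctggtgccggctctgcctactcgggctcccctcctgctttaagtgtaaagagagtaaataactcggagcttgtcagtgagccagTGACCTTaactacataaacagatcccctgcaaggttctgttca
Prkag2 start 3: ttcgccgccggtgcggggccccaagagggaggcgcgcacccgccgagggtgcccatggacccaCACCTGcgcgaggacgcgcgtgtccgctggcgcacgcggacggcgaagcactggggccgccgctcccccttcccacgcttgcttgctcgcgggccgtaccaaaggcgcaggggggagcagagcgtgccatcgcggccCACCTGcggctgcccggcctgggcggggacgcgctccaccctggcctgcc

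The *Prkag3* window held 1 E-box, with its first base 40 bases before the start. Of the *Prkag2* windows, start 2 held AAGGTCA, written on the opposite strand and beginning 43 bases before the start, and 3 E-boxes, while start 1 held 1 E-box and start 3 held 2. None of the 9 genes had TGACGTCA in a window. TGACG, which lies within that element, was in the windows of *Prkaa2*, *Prkag1* and *Stk11*. Of 32851 windows of this length in the RefSeq table, 1.55% held TGACGTCA, 17.8% TGACG, 4.08% AAGGTCA and 66.2% CANNTG. A match is a description of the letters only, and which *Prkag2* start was used cannot be read from counts per gene.

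Depth ran from 44845763 to 63016899 counts per library, and 1 count was worth between 0.0165 and 0.0212 normalized CPM (counts divided by the TMM-adjusted library size). The skeletal muscle markers *Acta1*, *Ckm*, *Myh4*, *Myl1* and *Tnnt3* summed to 117496, 124015 and 196744 CPM in WT 1 to 3 and to 179707, 180041 and 206390 CPM in KO 1 to 3, so that WT 3 lay with the KO libraries. *Sirt6* itself stood at 2.77, 2.23 and 2.88 CPM in WT 1 to 3 and at 7.81, 7.44 and 6.68 CPM in KO 1 to 3, a log2 fold change of 1.48 ± 0.17 (SE, edgeR adjusted p = 0.011, and 0.061 and 0.065 without KO 1 and without KO 3). The count over the whole gene was therefore higher in the libraries labelled *Sirt6* KO and does not check the deletion, and the groups are named by their labels throughout. WT 3, KO 1 and KO 3 had 0 counts of the β-globin gene *Hbb-bt*, and the other 3 libraries had between 1908 and 2766. The same 3 libraries were low in 8 slow-fiber genes, whose summed level was 7302, 8166 and 1389 CPM in WT 1 to 3 and 1672, 4793 and 2071 CPM in KO 1 to 3. These 2 splits cross the groups, and results that move with them are given with them below.

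Among the 9 genes, *Prkag2* was lower and *Prkag3* and *Prkab1* were higher in *Sirt6* KO muscle, and the other 6 did not pass the threshold. The 1 gene called lower stands beside 8.39% of all tested genes called lower, and the 2 called higher beside 7.85% called higher (edgeR quasi-likelihood test, Benjamini-Hochberg adjusted p under 0.05 over all genes tested). The genes called were 2 of 3 γ genes and 1 of 2 β genes, and neither α gene passed with edgeR, with DESeq2 or at an unadjusted p of 0.05. In normalized CPM the groups did not overlap for 5 of the 9 genes, against 40.0% of all tested genes. With a correction for the GC content of transcripts, 1 gene was called lower, against 3.53% of all genes, and 1 higher, against 3.41%. In whole muscle, fewer cells of a type and less RNA per cell cannot be told apart, for these and all later values.

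**Figure D1:**
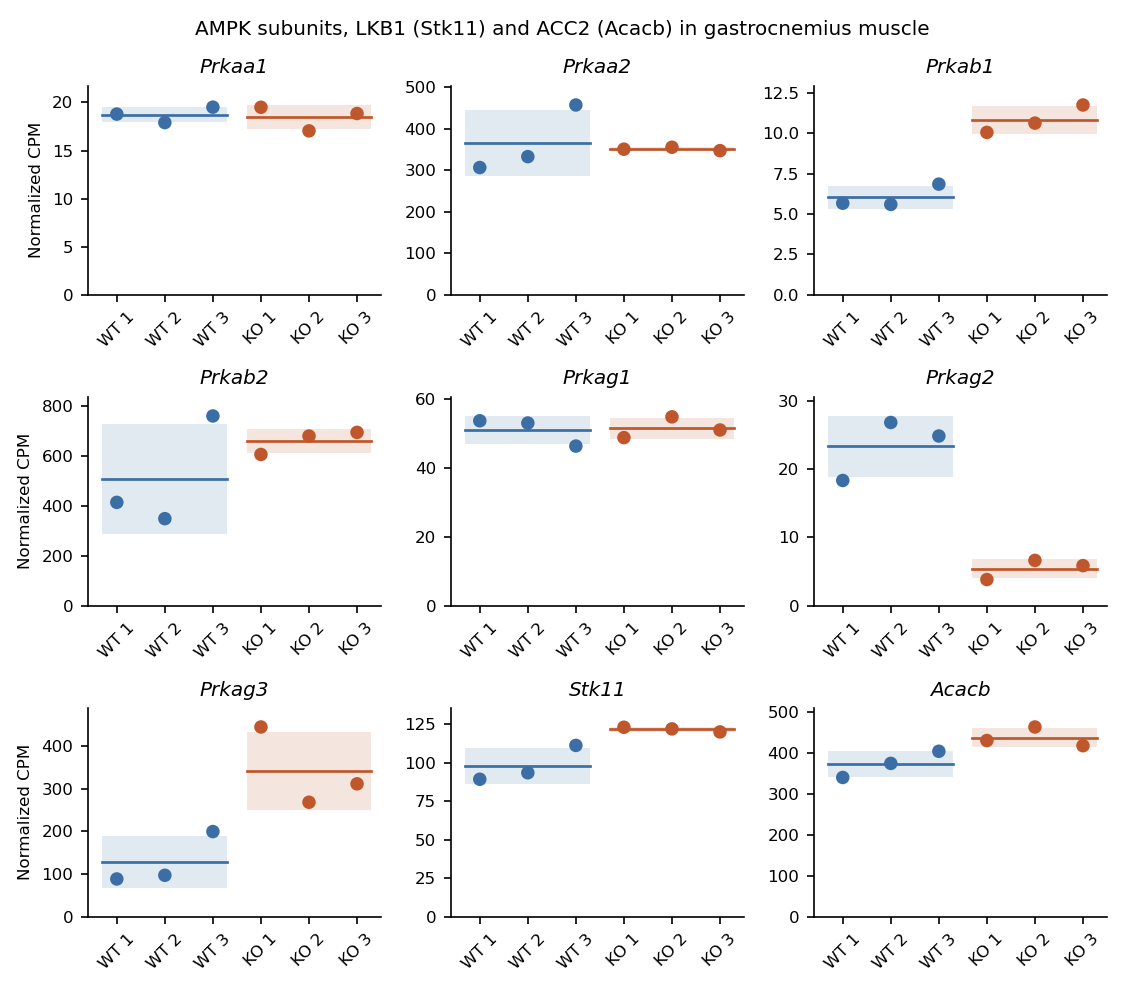
Level of each of the 9 genes in every library, as normalized CPM on axes that start at 0. Points are libraries (blue for WT, orange for Sirt6 KO), lines are group means and shaded bands are ± 1 SD (n = 3). Prkag2 is lower and Prkag3 and Prkab1 are higher in every KO library than in any WT library, and WT 3 lies above the KO libraries for Prkaa2 and Prkab2.

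The γ2 gene *Prkag2* is one of the more broadly expressed γ subunits and is known from a human glycogen storage cardiomyopathy. Its level was 18.3, 26.8 and 24.8 CPM in WT 1 to 3 and 3.83, 6.63 and 5.87 CPM in KO 1 to 3. Every KO library was below every WT library, and the lowest WT library was above the highest KO library by more than the whole spread within the KO group. The means were 23.3 ± 4.44 and 5.44 ± 1.45 CPM (SD, n = 3), 4.28-fold lower in *Sirt6* KO. The fitted log2 fold change was −2.10 ± 0.24 (SE, 95% confidence interval −2.66 to −1.54, edgeR adjusted p = 0.011). It was −2.15 with the GC correction (adjusted p = 0.013) and −2.06 with a covariate for the *Hbb-bt* split (adjusted p = 0.0075). The call was lost without KO 1 (−1.90, adjusted p = 0.059) and without KO 3 (−2.15, adjusted p = 0.065). The libraries poor in slow-fiber genes were on both sides, with WT 3 at 24.8 CPM and KO 1 and KO 3 at 3.83 and 5.87 CPM. Of the non-coding genes annotated within *Prkag2* and listed in the table, *Prkag2os1* had 0 counts and *2900005J15Rik* did not exceed 0.313 CPM.

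The γ3 gene *Prkag3* moved the other way. Its level was 88.5, 97.1 and 199.5 CPM in WT 1 to 3 and 444.6, 268.2 and 311.4 CPM in KO 1 to 3. The groups did not overlap, but WT 3 lay nearer to KO 2 than to WT 2. The means were 128.4 ± 61.8 and 341.4 ± 91.9 CPM (SD, n = 3), 2.66-fold higher in *Sirt6* KO (log2 fold change 1.41 ± 0.34, SE, 95% confidence interval 0.61 to 2.22, edgeR adjusted p = 0.036). The GC correction left a log2 fold change of 1.28 and ended the call (adjusted p = 0.065). Leaving out any 1 library other than WT 3 also ended it (log2 fold changes of 1.18 to 1.57, adjusted p between 0.058 and 0.12), and without WT 3 the value was 1.88 (adjusted p = 0.0055).

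Within each group, *Prkag3* was also higher in the libraries poorer in slow-fiber genes. Among the 3 libraries richer in them, WT 1 and WT 2 stood at 88.5 and 97.1 CPM and KO 2 at 268.2 CPM. Among the 3 poorer in them, WT 3 stood at 199.5 CPM and KO 1 and KO 3 at 444.6 and 311.4 CPM. Within each set the KO libraries were the higher, but KO 2 was the only KO library of the first and WT 3 the only WT library of the second. With the *Hbb-bt* split, which separates the same libraries, as a covariate, the log2 fold change was 1.23 ± 0.19 (SE, edgeR adjusted p = 0.011). All 8 slow-fiber genes (*Myh7*, *Myh2*, *Tnni1*, *Tnnt1*, *Tnnc1*, *Myl2*, *Myl3* and *Atp2a2*) had fold changes below 0, with a median of −1.11, and none passed edgeR's adjusted threshold, an unadjusted p of 0.05 (0 of 8) or DESeq2 (0 of 8). Their summed level ranged from 1389 to 8166 CPM in WT and from 1672 to 4793 CPM in *Sirt6* KO. The summed skeletal muscle markers, given above, were also low in WT 1 and WT 2 only. Of these 5 genes, *Ckm* was the 1 whose groups did not overlap (40.0% of all genes did not overlap). *Ckm* stood at 16763, 17160 and 26773 CPM in WT and at 28335, 29472 and 30797 CPM in *Sirt6* KO (edgeR adjusted p = 0.19). None of the 5 passed with edgeR, and DESeq2 called 2. *Myl1* had a log2 fold change of −0.05, and the other 4 were above 0. The *Hbb-bt* split is not the slow-fiber level itself. The part of fiber composition and of these markers in the *Prkag3* difference was not tested.

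**Figure D2:**
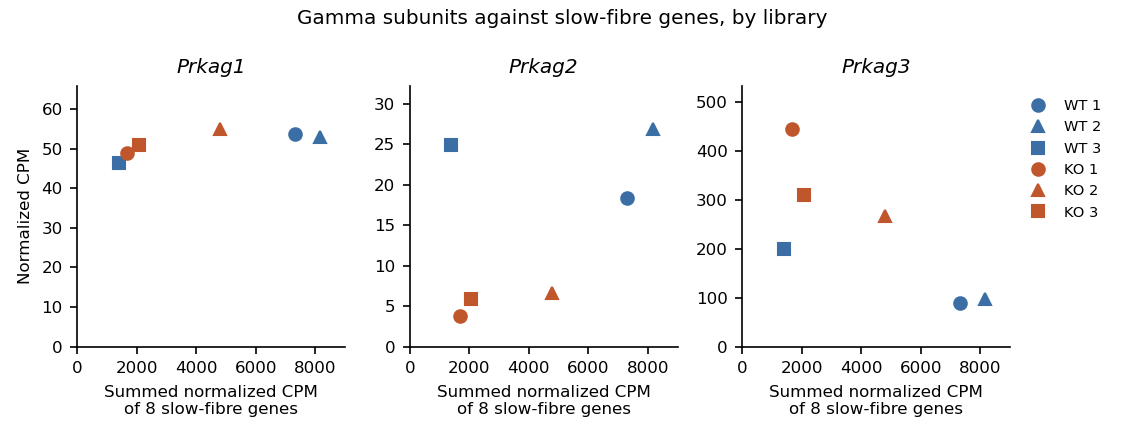
Normalized CPM of the 3 γ genes against the summed normalized CPM of 8 slow-fiber genes, 1 point per library (blue for WT, orange for Sirt6 KO, with circle, triangle and square for replicates 1, 2 and 3). Prkag2 is lower in every KO library than in any WT library. Prkag3 is highest in KO 1 and lowest in WT 1 and WT 2, the libraries richest in slow-fiber transcripts.

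The ubiquitous γ1 gene *Prkag1* did not follow either of them. It stood at 53.7, 53.1 and 46.4 CPM in WT and at 48.8, 54.9 and 51.0 CPM in *Sirt6* KO, and the groups overlapped. The log2 fold change was 0.015 ± 0.11 (SE, 95% confidence interval −0.23 to 0.26, edgeR adjusted p = 0.93), and −0.11 with the GC correction. The 3 γ genes could be compared with each other only per length, as shares of their summed deposited FPKM (fragments scaled to transcript length and library size). *Prkag3* made up 43.7, 44.8 and 65.1% of γ FPKM in WT 1 to 3 and 83.3, 72.3 and 76.6% in KO 1 to 3. *Prkag1* made up 45.8, 42.3 and 26.2% in WT and 15.8, 25.5 and 21.7% in *Sirt6* KO. *Prkag2* made up 10.5, 13.0 and 8.70% in WT and 0.852, 2.18 and 1.72% in *Sirt6* KO. None of these 3 shares overlapped between the groups, although for *Prkag1* WT 3 and KO 2 lay within 1 percentage point of each other.

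The mean *Prkag3* share was 51.2 ± 12.1% in WT and 77.4 ± 5.57% in *Sirt6* KO (SD, n = 3), a difference of 26.2 percentage points. The two-sided exact permutation test gave p = 0.1 for each γ share, the smallest value that 3 libraries against 3 allow, so none can pass 0.05. The difference in the *Prkag3* share was between 22.4 and 33.2 percentage points when 1 library was left out, the largest being without WT 3. The summed γ FPKM was 72.3, 72.1 and 89.2 in WT and 159.2, 108.5 and 116.1 in *Sirt6* KO, again without overlap (exact permutation p = 0.1). The FPKM ratio of *Prkag3* to *Prkag2* was 4.15, 3.45 and 7.49 in WT and 97.8, 33.2 and 44.6 in *Sirt6* KO. The FPKM ratio of *Prkag3* to *Prkag1* was 0.953 and 1.06 in WT 1 and 2, 2.49 in WT 3, and between 2.83 and 5.27 in the KO libraries.

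**Figure D3:**
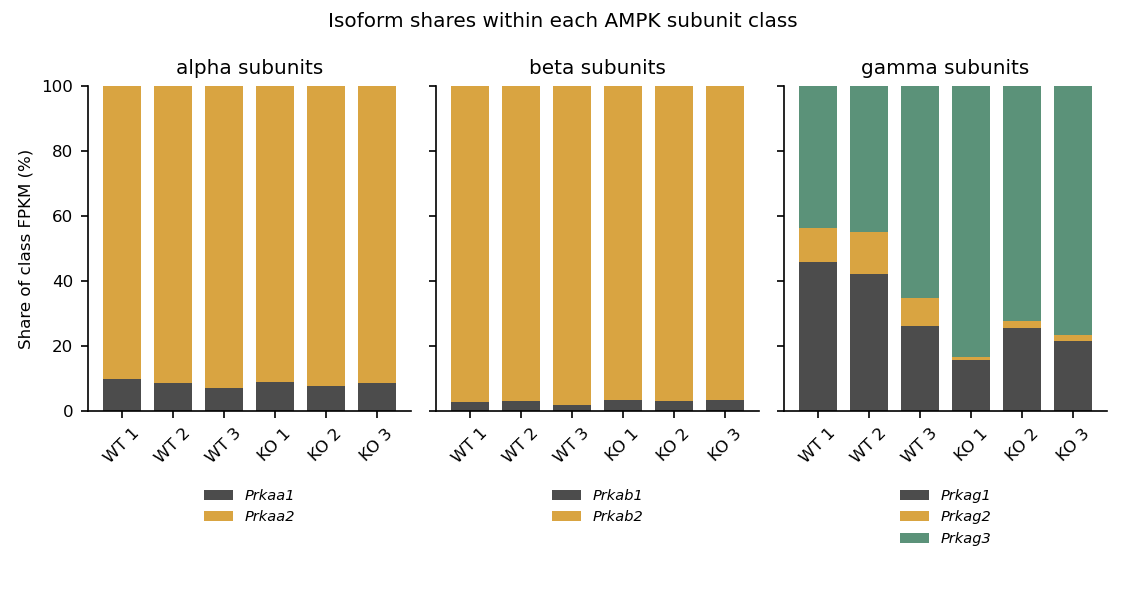
Share of each isoform in the summed FPKM of its subunit class, in percent, for each library (WT 1 to 3 and Sirt6 KO 1 to 3). The α and β shares overlap between the groups, whereas the Prkag3 segment of the γ bars takes 43.7 to 65.1% in WT and 72.3 to 83.3% in Sirt6 KO.

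Of the β genes, the minor one rose. *Prkab1* (β1) stood at 5.67, 5.60 and 6.86 CPM in WT 1 to 3 and at 10.1, 10.6 and 11.8 CPM in KO 1 to 3. The groups did not overlap and the spread within each was small, with means of 6.04 ± 0.71 and 10.8 ± 0.86 CPM (SD, n = 3). The difference was 1.79-fold, a log2 fold change of 0.84 ± 0.14 (SE, 95% confidence interval 0.50 to 1.18, edgeR adjusted p = 0.017). With the GC correction it was 0.65 (adjusted p = 0.043), and with the *Hbb-bt* covariate 0.79 (adjusted p = 0.014). Without WT 1, WT 2, KO 1 or KO 3 the adjusted p was between 0.057 and 0.083, and the log2 fold change lay between 0.78 and 0.94 whichever library was left out. These are low levels, resting on between 264 and 648 counts per library.

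**Figure D4:**
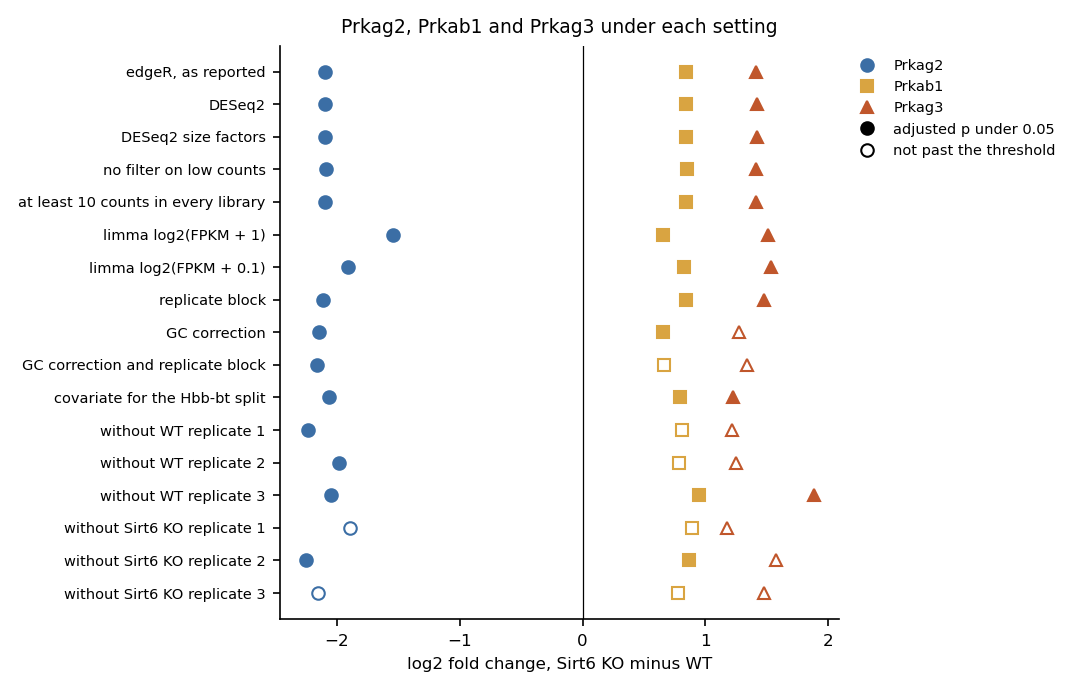
Log2 fold change (Sirt6 KO minus WT) of Prkag2, Prkab1 and Prkag3 as reported and under each alternative setting. Filled symbols have an adjusted p under 0.05 and open symbols do not. Each gene stays on its side of 0 in every setting shown, Prkag2 is open in 2 settings, and Prkag3 is filled in only 1 of the 6 fits that leave out a library.

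*Prkab2* (β2), the most abundant of the 9 transcripts by mean FPKM, stood at 415.0, 349.6 and 761.9 CPM in WT and at 607.4, 681.5 and 696.1 CPM in *Sirt6* KO. WT 3 was the highest of all 6 libraries, above the KO libraries, and WT 1 and WT 2 were the lowest, the same 2 libraries in which the summed skeletal muscle markers were low (117496 and 124015 CPM against at least 179707 CPM in the others), whose part was not tested. The log2 fold change was 0.38 ± 0.28 (SE, 95% confidence interval −0.28 to 1.04, edgeR adjusted p = 0.37), and without WT 3 it was 0.79 (adjusted p = 0.0080). *Prkab2* made up 97.2, 96.8 and 98.2% of β FPKM in WT and 96.7, 96.9 and 96.6% in *Sirt6* KO (exact permutation p = 0.2). The summed β FPKM overlapped between the groups, at 110.5 ± 36.1 in WT and 132.7 ± 7.01 in *Sirt6* KO (SD, n = 3, exact permutation p = 0.4).

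Neither catalytic subunit passed the test. *Prkaa2* (α2) stood at 306.7, 333.0 and 457.6 CPM in WT and at 350.9, 355.6 and 347.5 CPM in *Sirt6* KO, with WT 3 again the highest library. Its log2 fold change was −0.06 ± 0.17 (SE, 95% confidence interval −0.45 to 0.34, edgeR adjusted p = 0.83). *Prkaa1* (α1) stood at 18.8, 17.9 and 19.5 CPM in WT and at 19.5, 17.0 and 18.8 CPM in *Sirt6* KO. The log2 fold change of *Prkaa1* was −0.021 ± 0.11 (SE, 95% confidence interval −0.27 to 0.23, edgeR adjusted p = 0.90). The GC correction turned both above 0, to 0.25 and 0.30 (adjusted p = 0.36 and 0.11). These intervals, and not the p-values, bound the size of any difference in the fit without that correction. *Prkaa2* made up 90.3, 91.3 and 93.0% of α FPKM in WT and 91.1, 92.2 and 91.3% in *Sirt6* KO (exact permutation p = 1). On the FPKM scale the summed α level was 41.9, 41.8 and 49.5 in WT and 39.7, 38.9 and 37.6 in *Sirt6* KO, without overlap (exact permutation p = 0.1), whereas the normalized CPM of both α genes overlapped.

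In normalized CPM the upstream kinase and the substrate stood, in every KO library, above every WT library, and neither passed the threshold. *Stk11* stood at 89.3, 93.5 and 111.3 CPM in WT and at 123.1, 122.0 and 120.0 CPM in *Sirt6* KO. Its log2 fold change was 0.31 ± 0.12 (SE, 95% confidence interval 0.04 to 0.59, edgeR adjusted p = 0.11). It was called with limma on FPKM (0.36, adjusted p = 0.026) and without WT 3 (0.42, adjusted p = 0.014), and the GC correction brought it to 0.060 (adjusted p = 0.77). *Acacb* stood at 340.2, 374.6 and 404.3 CPM in WT and at 430.6, 463.6 and 417.8 CPM in *Sirt6* KO. On the FPKM scale *Acacb* overlapped, with KO 3 at 39.8 and WT 1 and WT 2 at 40.6 and 41.6. Its log2 fold change was 0.23 ± 0.12 (SE, 95% confidence interval −0.06 to 0.52, edgeR adjusted p = 0.23), and 0.010 with the GC correction (adjusted p = 0.97). *Stk11* and *Acacb* had the highest transcript GC contents of the 9 genes, 59.5 and 56.7%, and *Prkaa1* and *Prkaa2* the lowest, 40.2 and 40.7%. *Stk11* overlaps *Cbarp*, which did not exceed 3.21 CPM.

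Per length, the order of the 9 transcripts by mean FPKM over the 6 libraries was *Prkab2* (118.1), *Prkag3* (70.3), *Acacb* (41.6), *Prkaa2* (38.1), *Stk11* (36.8), *Prkag1* (27.5), *Prkag2* (5.07), *Prkab1* (3.53) and *Prkaa1* (3.50). *Acacb*, *Prkaa2* and *Stk11* were not separated from their neighbours, with ranges of 39.3 to 45.2, 34.3 to 46.0 and 33.7 to 40.3 FPKM. *Prkab1* and *Prkaa1* overlapped over all 6 libraries but changed places: *Prkaa1* was the higher in every WT library (3.46 to 4.08 against 2.57 to 2.80 FPKM) and *Prkab1* in every KO library (4.14 to 4.63 against 3.03 to 3.54 FPKM). The places of *Prkag2*, *Prkaa2* and *Prkab1* differed between every WT and every KO library, and that of *Prkag3* in WT 1 and WT 2. So did that of *Acacb*, but not in 1 direction, with places 2, 2 and 4 in WT 1 to 3 and place 3 in every KO library. *Prkag3* was the fifth or sixth gene in WT 1 and WT 2, at 31.6 and 32.3 FPKM, and the first or second in WT 3 and every KO library, at 58.1 FPKM in WT 3 and between 78.4 and 132.7 FPKM in *Sirt6* KO. *Prkag2* was seventh in every WT library, at 7.61 to 9.34 FPKM, and last in every KO library, at 1.36 to 2.36 FPKM. *Prkaa2* was the third gene in every WT library and the fifth in every KO library.

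The genes whose profile over the 6 libraries was most like that of 4 members were found among 7244 genes of at least 10 CPM, by the root-mean-square difference of centred log2 CPM. For *Prkag3* these were *Mamstr* (0.17), *Cacng1* (0.18) and *Mafa* (0.18), and no gene lay within 0.1. *Cacng1*, for example, stood at 154.7, 186.1 and 360.1 CPM in WT and at 580.8, 424.6 and 534.6 CPM in *Sirt6* KO. For *Prkaa2* they were *Tmod1* (0.037), *Pdrg1* (0.039) and *Snupn* (0.039), for *Stk11* they were *Vps28* (0.025), *Surf4* (0.026) and *Trappc9* (0.027), and for *Acacb* they were *Mrpl43* (0.027), *Aes* (0.028) and *Trabd* (0.033). The profiles of *Prkaa2*, *Stk11* and *Acacb* varied less around their own means, with root-mean-square log2 deviations of 0.18, 0.19 and 0.14, against 0.86 for *Prkag3*. A limit of 0.1 is easier to meet for such profiles. They had 242, 635 and 443 genes within it, so their nearest genes were not set apart from many others.

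Of 60 further genes of the AMPK pathway, taken by role and with earlier results of these data known, 59 were tested (*Brsk2* was not). Of these, 10 were lower and 1 was higher in *Sirt6* KO, against 8.39 and 7.85% of all genes. The median log2 fold change of the 59 was −0.16, beside −0.021 over all genes tested, and 37 of them were below 0. With the GC correction 7 were lower and 2 higher, against 3.53 and 3.41% of all genes. The lists below are small, and their counts are read against the same shares. Such counts describe the genes chosen and do not test the pathway. The number called depended on single libraries. Without KO 1 or KO 3 no gene was called lower (17 and 13 had an unadjusted p under 0.05), without WT 1 or WT 2 there were 2, without KO 2 there were 6, and without WT 3 there were 14.

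Of the genes that regulate AMPK from outside, those of the folliculin complex were the ones that passed in their list, 3 of 8, each lower (8.39% of all genes), and DESeq2 called 4. *Flcn*, which encodes a lysosomal regulator that binds AMPK through its partners FNIP1 and FNIP2, stood at 242.3, 300.2 and 219.4 CPM in WT and at 76.1, 110.0 and 104.1 CPM in *Sirt6* KO. The groups were far apart, with a log2 fold change of −1.39 ± 0.19 (SE, edgeR adjusted p = 0.013), and −1.58 with the GC correction (adjusted p = 0.014). *Fnip1* stood at 127.3, 168.8 and 127.9 CPM against 62.0, 84.5 and 74.3 CPM (log2 fold change −0.94 ± 0.17, SE, edgeR adjusted p = 0.017). *Fnip2* stood at 13.4, 15.9 and 6.42 CPM against 3.79, 6.20 and 4.09 CPM, where WT 3 and KO 2 nearly met (log2 fold change −1.34 ± 0.35, SE, edgeR adjusted p = 0.043). The GC correction ended the calls of *Fnip1* (−0.59, adjusted p = 0.075) and *Fnip2* (−1.35, adjusted p = 0.059). Each of the 3 calls was lost without KO 1 and without KO 3, that of *Fnip1* also without WT 1 or WT 2, and that of *Fnip2* without any 1 library other than WT 3, with adjusted p up to 0.15. The other 5 lysosomal and nutrient regulators, among them the sestrins, the lysosomal adaptor *Lamtor1* and the scaffold *Axin1*, did not pass.

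Of the LKB1 partners, *Cab39*, the MO25α scaffold, was the 1 of 4 that passed, and it was lower (8.39% of all genes). By DESeq2 3 of the 4 passed, 3 had an unadjusted p under 0.05 with edgeR, and the groups did not overlap for 3, the others being *Stradb* (edgeR adjusted p = 0.058) and *Cab39l* (edgeR adjusted p = 0.075). *Cab39* stood at 346.4, 406.7 and 424.5 CPM in WT and at 209.0, 278.1 and 238.5 CPM in *Sirt6* KO, a log2 fold change of −0.70 ± 0.15 (SE, edgeR adjusted p = 0.027). Of the other kinases of AMPK, none of 3 passed (1 had an unadjusted p under 0.05, and DESeq2 called 0), and the most abundant, *Map3k7* (TAK1), had a log2 fold change of 0.06 ± 0.13 (SE, edgeR adjusted p = 0.76). Of 4 phosphatase genes that can act on AMPK, edgeR called 1 and DESeq2 called 2. All 4 were lower without overlap of the groups (40.0% of all genes did not overlap), and 3 had an unadjusted p under 0.05 with edgeR. With the GC correction 1 was called lower, against 3.53% of all genes. It was *Ppp2cb* (log2 fold change −0.45, edgeR adjusted p = 0.043), which did not pass without that correction (edgeR adjusted p = 0.088). *Ppp2ca*, a catalytic subunit of PP2A, fell, from 202.0, 265.3 and 205.4 CPM to 132.7, 165.0 and 139.7 CPM (log2 fold change −0.62 ± 0.15, SE, edgeR adjusted p = 0.037). The most abundant, *Ppm1a*, did not pass, at −0.19 ± 0.12 (SE, edgeR adjusted p = 0.28). The GC correction ended the calls of *Cab39* (−0.55, adjusted p = 0.068) and *Ppp2ca* (−0.45, adjusted p = 0.11), and both were lost without WT 1, WT 2, KO 1 or KO 3 (adjusted p between 0.058 and 0.14), that of *Ppp2ca* also without KO 2 (adjusted p = 0.061).

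In the malonyl-CoA pathway, 1 of 8 genes passed, with edgeR as with DESeq2, and it was higher (7.85% of all genes). *Cpt1a*, the liver form of carnitine palmitoyltransferase 1, stood at 10.5, 13.0 and 13.9 CPM in WT and at 31.6, 21.6 and 28.2 CPM in *Sirt6* KO (log2 fold change 1.12 ± 0.18, SE, edgeR adjusted p = 0.014). It kept its call with the GC correction (1.04, adjusted p = 0.031) and lost it without WT 2, KO 1 or KO 3 (adjusted p between 0.053 and 0.072). *Cpt1b*, the muscle form that malonyl-CoA from ACC2 inhibits, stood at 290.7, 322.7 and 253 CPM against 260.0, 348.4 and 297.4 CPM, and its log2 fold change of 0.06 ± 0.16 (SE, edgeR adjusted p = 0.80) had a 95% confidence interval that spanned 0. The genes for ACC1, malonyl-CoA decarboxylase and fatty acid synthase did not pass either.

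Of 19 genes for AMPK substrates, 3 fell (8.39% of all genes were called lower), and DESeq2 called 5 in all. *Tbc1d4* (AS160), which holds back GLUT4 vesicles, had the narrowest spread, at 47.3, 44.9 and 41.6 CPM in WT and at 21.7, 23.2 and 22.2 CPM in *Sirt6* KO. Its log2 fold change was −0.99 ± 0.10 (SE, edgeR adjusted p = 0.011), and −1.03 with the GC correction (adjusted p = 0.012). It was called in 4 of the 6 fits that left out a library and not without KO 1 (adjusted p = 0.059) or KO 3 (adjusted p = 0.065). *Ppargc1a* (PGC-1α), which the study chose on these samples so that its direction is not independent evidence, stood at 764.2, 1703 and 515.3 CPM against 45.6, 169.7 and 92.2 CPM (log2 fold change −3.28 ± 0.61, SE, edgeR adjusted p = 0.019). It lost its call without WT 1, WT 2, KO 1 or KO 3 (adjusted p between 0.055 and 0.086). *Pfkfb2*, a bifunctional enzyme that sets fructose 2,6-bisphosphate, stood at 60.5, 69.1 and 30.3 CPM against 17.2, 28.3 and 20.8 CPM, with WT 3 close to KO 2 (log2 fold change −1.27 ± 0.32, SE, edgeR adjusted p = 0.038). Its call was lost with the GC correction (−1.14, adjusted p = 0.068) and without any 1 library other than WT 3 (adjusted p between 0.058 and 0.13). The other 16 substrate genes, among them *Tbc1d1*, *Ulk1*, *Rptor* and *Tsc2*, did not pass.

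Of 11 tested AMPK-related kinases, which LKB1 also activates, 2 fell (8.39% of all genes were called lower), and DESeq2 called 3. *Nuak1* stood at 59.3, 64.6 and 48.4 CPM in WT and at 22.0, 35.5 and 19.7 CPM in *Sirt6* KO (log2 fold change −1.16 ± 0.23, SE, edgeR adjusted p = 0.022). *Sik1*, a known target of CREB, stood at 120.8, 174.1 and 41.3 CPM against 19.3, 28.0 and 17.7 CPM, with WT 3 much nearer to the KO libraries than WT 1 or WT 2 (log2 fold change −2.37 ± 0.48, SE, edgeR adjusted p = 0.023). Both kept their calls with the GC correction (adjusted p = 0.033 and 0.035). *Nuak1* lost its call without WT 1, WT 2, KO 1 or KO 3 (adjusted p between 0.075 and 0.087), and *Sik1* without any 1 library other than WT 3 (adjusted p between 0.052 and 0.099). For glucose uptake, neither gene passed with edgeR (1 of 2 had an unadjusted p under 0.05). *Hk2* (hexokinase 2) stood at 675.5, 1487 and 784.1 CPM against 269.2, 617.4 and 365.7 CPM, without overlap (log2 fold change −1.23 ± 0.39, SE, edgeR adjusted p = 0.071), and DESeq2 called it (−1.24, adjusted p = 0.0053).

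Markers of other cells were read as sums over fixed lists. The adipocyte sum (7 genes, *Lep* at 0 counts in at least 1 library) ran from 124.0 to 259.0 CPM in WT and from 163.0 to 298.0 CPM in *Sirt6* KO, and the endothelial sum (4 genes) from 128.8 to 239.3 and from 145.7 to 150.9 CPM. The fibroblast sum (4 genes) ran from 458.2 to 836.0 and from 536.3 to 561.5 CPM, and the macrophage sum (4 genes) from 11.7 to 24.4 and from 16.8 to 20.0 CPM. The erythroid sum (5 genes) ran from 46.6 to 297.0 and from 80.2 to 180.8 CPM. Each of these ranges overlapped between the groups, and edgeR called none of these genes. A sum can hide genes that move in opposite directions. Of the 4 fibroblast genes, 2 had an unadjusted p under 0.05 with edgeR, and DESeq2 called 1. The log2 fold changes of the 4 ran from −0.68 to 0.69. Of the 4 endothelial genes, 2 had an unadjusted p under 0.05 with edgeR, and DESeq2 called 1. The part of these cells in the differences of *Prkag2*, *Prkag3* and *Prkab1* was not tested.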

How the data were processed

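Whole GAS muscle RNA of 3 WT and 3 *Sirt6* KO mice was sequenced, 1 library per animal, and groups and replicate numbers came from the labels. The authors deposited read counts per gene (whole numbers, not normalized), FPKM and TPM in 1 table of 24532 genes on mm10 (GRCm38), made with StringTie 2.1.3b. Their processing notes also list HISAT2 2.1.0 and Bowtie2 2.3.4.1, and the reporting summary names STAR. The labels name a stranded kit and the methods another. The counting's strand setting is not given in the sources used here, so reads of overlapping genes on opposite strands may not be told apart. The methods describe quantile-normalized log2(FPKM + 1), and a figure legend a Wald test in DESeq2. Different *Sirt6* flox lines are given in the methods and in the reporting summary.

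The counts were filtered with filterByExpr, which left 13801 genes, normalized by TMM (factors 0.909 to 1.11) and tested with edgeR 4.0.16's quasi-likelihood test in R 4.3.3, with Benjamini-Hochberg adjustment over all genes tested and a threshold of 0.05. The biological coefficient of variation was 24.1%. Replicate libraries differed by far more than counting noise (chi-square per degree of freedom between 44.0 and 309.1), so none was merged. Deposited FPKM served for isoform shares and for limma 3.58.1, on a log2 scale with pseudocounts of 1 and 0.1, and deposited TPM for 1 alternative of the shares. DESeq2 1.42.0 was an alternative. The GC correction used a lowess trend per library with span 0.3, by the transcripts' GC content in GENCODE M21 (available for 13715 genes, 99.4%). Across genes, the fold change had a Spearman correlation with GC content of 0.33. The covariate for the *Hbb-bt* split was added after the data were seen. The scripts were tested on simulated data.

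The members, lists and named genes were chosen with earlier results of these data known. Named were the 9 members, *Sirt6*, each pathway gene past the threshold and, where 1 or none in a list passed, its most abundant gene by mean CPM. Other genes are given as examples only. Promoter windows came from RefSeq on GRCm38.p6, matched for 9 of 9 members. Precision is limited by 3 animals per group more than by depth. The result of 1 marker gene, and the marker list that holds it, are not reported here.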

Additional observations from a re-analysis of the deposited data

How the results depend on the processing

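Over 16 alternatives, *Prkag2* lay between −2.25 and −1.54, *Prkab1* between 0.65 and 0.94 and *Prkag3* between 1.18 and 1.88 on the log2 scale, each with 1 sign. Leaving out 1 library gave between 0 and 1 member called lower and between 0 and 4 called higher (4 without WT 3, with *Prkab2* and *Stk11* added), and between 0 and 14 pathway genes called lower and 0 and 4 higher. Members called higher numbered 1 with the GC correction and 0 with the GC correction and the replicate block (3 had an unadjusted p under 0.05). DESeq2 called 16 pathway genes lower and 3 higher, the GC correction 2 higher, the *Hbb-bt* covariate 3 higher, and the GC correction with the block 0 higher (5 with an unadjusted p under 0.05).

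Among the 25 named genes compared, signs turned only for genes that were not called. With the GC correction, and with it and the block, *Prkaa1* was at 0.30 and 0.30, *Prkaa2* at 0.25 and 0.27, *Prkag1* at −0.11 and −0.11, *Ppm1a* at 0.0076 and 0.012, and *Cpt1b* at −0.093 and −0.095. *Prkaa2* was at 0.0062 and 0.0066 with limma on log2(FPKM + 1) and log2(FPKM + 0.1), and *Map3k7* at −0.0019 with the *Hbb-bt* covariate. Leaving out 1 library, *Prkaa1* ranged from −0.060 to 0.047, *Prkaa2* from −0.16 to 0.14, *Prkag1* from −0.047 to 0.063, *Map3k7* from −0.038 to 0.15 and *Cpt1b* from −0.039 to 0.16. The cause of these changes was not tested.

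Same-numbered libraries deviated from their group means with correlations of −0.11, 0.26 and 0.16, so the numbers were not taken to pair the animals. With the replicate block alone 1 member was lower and 2 were higher, and over all genes 1018 were lower and 904 higher, against 1158 and 1084 without it. Over all genes, 2 were lower and 6 higher without KO 1, 5 and 8 without KO 3, and 2219 and 2363 without WT 3, against 1158 and 1084 with all 6 libraries. DESeq2 on all 6 called 1801 and 1730.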

Other observations

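One AMPK substrate gene that did not pass, *Pfkfb3*, was singled out after its values were seen. *Pfkfb3* encodes an enzyme that makes fructose 2,6-bisphosphate and so favours glycolysis. It stood at 110.0 and 133.1 CPM in WT 1 and WT 2, at 593.0 CPM in WT 3, and at 705.6, 611.1 and 552.9 CPM in KO 1 to 3. WT 3 thus lay within the KO range for *Pfkfb3*, and above it for *Prkab2*, but with the WT group for *Prkag2*, *Prkab1* and *Tbc1d4*. The edgeR log2 fold change of *Pfkfb3* was 1.16 ± 0.61 (SE, edgeR adjusted p = 0.21, n = 3 per group), and 1.21 with the *Hbb-bt* covariate (adjusted p = 0.096). Without WT 3 it was 2.36 (edgeR adjusted p = 0.0038), and no other fit that left out a library called the gene.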
